A study of Oryza sativa Japonica Group and Oryza sativa with 4 samples.

Results

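Callose is a glucan of the plant cell wall that is laid down at plasmodesmata, at wounds and on the sieve plates of the phloem. It is made at the plasma membrane by callose synthases (glucan synthase-like proteins of glycosyl transferase family 48) from UDP-glucose, and it is cut by beta-1,3-glucanases of glycoside hydrolase family 17, some of which are pathogenesis-related proteins that also act on fungal walls. In rice fed on by the brown planthopper, another phloem feeder, callose on sieve plates is known to block feeding and glucanases are known to reopen the sieve tubes.

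The genes were chosen by words for these enzymes in the deposited transcript descriptions, with the commas of the descriptions decoded. The search found 57 of 37849 genes, of which 9 were synthesis genes and 48 were breakdown genes. RNA came from leaves of 21-day-old rice seedlings of NIL, the near-isogenic line that carries *Grh1* from Shingwang, and of Ilpum, its GRH-susceptible recurrent parent (wild type). Seedlings of each line were either infested with second instar nymphs of the green rice leafhopper (GRH) for 48 h or kept without insects. The deposited data hold 1 library per condition (NIL GRH, NIL control, Ilpum GRH and Ilpum control), so that no difference has a replicate check and none was tested. The study describes duplicate leaf samples from different seedlings, and no source used here says whether a library holds one seedling or both.

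The libraries held 1170099 reads in NIL GRH, 5037081 in NIL control, 894661 in Ilpum GRH and 2119765 in Ilpum control. Levels are FPKM, a count of fragments corrected for transcript length and library size, as deposited. A response (log2FC) is the log2 of FPKM with GRH over FPKM without, with 1 FPKM added to each, and was computed for the 18575 genes that averaged 1 FPKM or more across the libraries. A gene was counted as higher or lower when it changed at least 2-fold on this scale. Counting intervals are exact 95% intervals of the ratio of reads, each library scaled to its total, and cover counting error only. Where a library lists 0, fold values were computed with 3 reads in it, and these are not limits of the counting interval. Leaf genes for the rubisco small subunit and light-harvesting proteins, 23 in all of which 4 were at 0 in every library, summed to 7284 FPKM in NIL GRH against 23298 in NIL control, and to 17436 FPKM in Ilpum GRH against 31686 in Ilpum control. These photosynthesis genes were thus lower with GRH in both lines. Genes named for pollen or anther, 44 with 26 at 0 throughout, summed to 1876 FPKM in NIL GRH against 1067 in NIL control, and to 3252 FPKM in Ilpum GRH against 1896 in Ilpum control. The 9 B-type cyclin genes of dividing cells, 1 at 0 throughout, summed to 44.6 FPKM in NIL GRH against 70.0 in NIL control, and to 27.6 FPKM in Ilpum GRH against 42.8 in Ilpum control. Root and seed genes went apart in the lines. The 51 seed storage genes, 11 at 0 throughout, summed to 493 FPKM in NIL GRH against 590 in NIL control, and to 971 FPKM in Ilpum GRH against 421 in Ilpum control. The 14 root genes, 9 at 0 throughout, summed to 29.0 FPKM in NIL GRH against 45.9 in NIL control, and to 59.0 FPKM in Ilpum GRH against 36.3 in Ilpum control. The part of these lists in the results for callose genes was not tested. In bulk leaf RNA, fewer cells of a type and less RNA per cell cannot be told apart.

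Of the 9 synthesis genes, 7 passed the filter, 1 had 11 reads in all (Os01g0533100, NIL control alone) and 1 had none. The gene without reads was Os06g0182300 (chromosome 6, 4067116 to 4083811), described as a callose synthase of microsporogenesis and male fertility. Of the 48 breakdown genes, 28 passed the filter, 8 had at most 18 reads in all and 12 had no read in any library. At least 100 reads over the 4 libraries were found for 6 synthesis and 17 breakdown genes. Next to the filter, Os01g0739700 lay outside with a mean of 0.769 FPKM and Os01g0533500 inside with 1.69 FPKM. A gene high in a single condition can pass only through that condition, also with some reads elsewhere, so the counts of genes below are descriptions.

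In FPKM, the summed level of the synthesis genes was lower with GRH in both lines and that of the breakdown genes was higher. Summed over all members, synthesis genes had 277 FPKM in NIL GRH against 329 in NIL control, a ratio of 0.843, and 179 FPKM in Ilpum GRH against 252 in Ilpum control, a ratio of 0.71. Much of the lower sum in Ilpum came from 1 gene, Os06g0113150, with 28.4 FPKM in Ilpum GRH against 82.7 in Ilpum control. Breakdown genes summed to 1610 FPKM in NIL GRH against 1057 in NIL control (ratio 1.52) and to 1676 FPKM in Ilpum GRH against 921 in Ilpum control (ratio 1.82). In FPKM the breakdown sum was 5.81 times the synthesis sum in NIL GRH against 3.22 times in NIL control, and 9.36 times in Ilpum GRH against 3.66 times in Ilpum control. The synthesis genes had 955 reads in NIL GRH against 4514 in NIL control, and 535 in Ilpum GRH against 1337 in Ilpum control. Scaled to library totals, these sums lay closer to their controls in both lines than the FPKM sums did. The ratio of breakdown to synthesis thus rose less with GRH on the scale of reads. Much of the breakdown sum with GRH came from 3 genes, Os01g0940700, Os01g0940800 and Os07g0539900, singled out after their values were seen. Together they had 281 FPKM in NIL GRH against 31.9 in NIL control, and 685 in Ilpum GRH against 41 in Ilpum control. They made up 17.4% of the breakdown sum in NIL GRH against 3.02% in NIL control, and 40.9% in Ilpum GRH against 4.45% in Ilpum control. Without them the ratio for the other 45 breakdown genes was 1.3 in NIL and 1.13 in Ilpum.

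Among the 7 synthesis genes that passed the filter, none was at least 2-fold higher with GRH in NIL, where 14.7% of all genes tested were, and 1 was lower, against 20.9% of all genes. In Ilpum 1 was higher (20.4% of all genes) and 2 were lower (28.6% of all genes). Of those lower, Os01g0533500 passed the filter only through Ilpum control. Their median log2FC was -0.29 in NIL and -0.47 in Ilpum, against -0.06 and -0.10 over all genes tested. Within 2-fold in both lines were 4 of the 7, against 37.1% of all genes tested.

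Os02g0832400 (chromosome 2, 35790162 to 35797308), similar to a callose synthase 1 catalytic subunit, had the highest mean level of the synthesis genes. It had 87.6 FPKM in NIL GRH against 107 in NIL control, and 54.7 FPKM in Ilpum GRH against 75.9 in Ilpum control. The log2 ratio of reads was -0.30 in NIL (counting interval -0.49 to -0.12) and -0.33 in Ilpum (-0.60 to -0.07). Both infested libraries were therefore slightly below their controls, by less than 2-fold.

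Os06g0113150 (chromosome 6, 741319 to 747628), similar to GSL8, a glucan synthase-like protein of Arabidopsis, had 72.8 FPKM in NIL GRH against 81.7 in NIL control, and 28.4 FPKM in Ilpum GRH against 82.7 in Ilpum control. The Ilpum GRH library stood apart from the other libraries, which lay between 72.8 and 82.7 FPKM. The log2 ratio of reads was -0.16 in NIL (-0.44 to 0.11) and -1.50 in Ilpum (-2.01 to -1.02), from 134 and 644 reads in NIL and 41 and 275 in Ilpum. The response in NIL exceeded that in Ilpum by 1.34 on the log2 scale of reads (0.78 to 1.92). Its neighbour on the same strand, Os06g0112800 (725044 to 728229), similar to a callose synthase 1 catalytic subunit, had 32 FPKM in NIL GRH against 54.2 in NIL control, and 26.4 FPKM in Ilpum GRH against 41.9 in Ilpum control. Both infested libraries were below their controls, with log2 ratios of reads of -0.72 (-1.15 to -0.31) in NIL and -0.78 (-1.38 to -0.21) in Ilpum, and the interval of their difference ran from -0.66 to 0.80. The annotated transcripts of these neighbours are at most 1505 and 1398 bases long, against 5948 bases for Os01g0754200 and 6235 for Os03g0119500, the longest of the synthesis genes.

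Os01g0754200 (chromosome 1, 31641231 to 31648357) was the synthesis gene with the largest ratio of GRH to control in both lines, on the scale of reads. It is described as similar to GSL5 of Arabidopsis, the callose synthase known there for callose at wounds and at sites of fungal attack. It had 18.2 FPKM in NIL GRH against 12.1 in NIL control, and 17.9 FPKM in Ilpum GRH against 7.62 in Ilpum control. The log2FC was 0.55 in NIL and 1.13 in Ilpum, while the log2 ratio of reads was 1.62 in NIL (1.29 to 1.95) and 2.23 in Ilpum (1.69 to 2.79). In the deposited values the reads of this gene were split over transcripts of unequal length, so that FPKM and reads gave unequal ratios. The transcript of 5948 bases, Os01t0754200-03, had 18.2 FPKM in NIL GRH against 3.56 in NIL control, and 14.1 FPKM in Ilpum GRH against 1.58 in Ilpum control. The transcript of 1503 bases, Os01t0754200-04, was listed at 0 FPKM in NIL GRH against 8.24 in NIL control, and had 3.77 FPKM in Ilpum GRH against 5.84 in Ilpum control. With GRH, more of the reads thus lay on the long transcript in both lines.

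The vascular callose synthase gene Os03g0119500 (chromosome 3, 1049042 to 1075622), described by its effect on the patterning of vascular cells, had 32.7 FPKM in NIL GRH against 42.7 in NIL control, and 28.3 FPKM in Ilpum GRH against 24.1 in Ilpum control. Its log2 ratio of reads was -0.37 in NIL (-0.57 to -0.18) and 0.28 in Ilpum (0.00 to 0.55), both within 2-fold. Os03g0128100 (chromosome 3, 1582178 to 1585728), similar to a callose synthase 1 catalytic subunit, had 33.8 FPKM in NIL GRH against 28.1 in NIL control, and 23.2 FPKM in Ilpum GRH against 14.6 in Ilpum control. Each line had more of it with GRH, with log2 ratios of reads of 0.28 (-0.07 to 0.62) in NIL and 0.72 (0.17 to 1.26) in Ilpum. Os01g0533500 (chromosome 1, 19303393 to 19306036) was listed at 0 in both infested libraries, against 17 reads in NIL control and 22 in Ilpum control. With 3 reads in each infested library it would be 1.32-fold lower in NIL and 3.1-fold lower in Ilpum. The exact interval of the log2 ratio of reads reached 0.06 in NIL, which includes no change, and -1.21 in Ilpum. Os01g0533500 passed the filter only through Ilpum control (5.18 FPKM, against 1.59 FPKM in NIL control). Its count as lower in Ilpum thus followed from the filter.

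**Figure D1:**
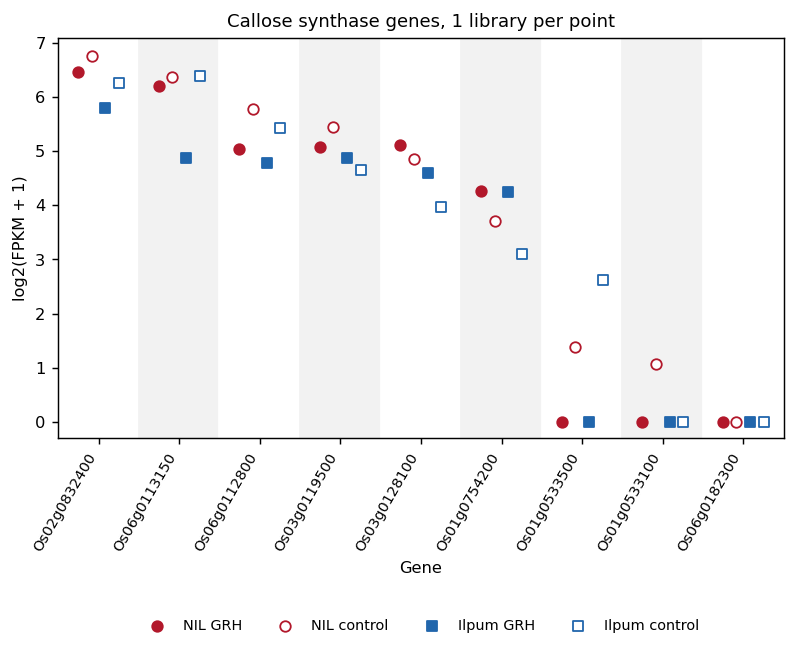
Level of each of the 9 callose synthase genes, as log2 of FPKM with 1 added, in NIL GRH, NIL control, Ilpum GRH and Ilpum control, with 1 library per point. Os06g0113150 is lowest in Ilpum GRH (28.4 FPKM), Os01g0754200 is higher with GRH in both lines, and Os06g0182300 is at 0 in all libraries.

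Among the 28 breakdown genes that passed the filter, NIL had 10 that were higher by 2-fold or more with GRH and 1 that was lower, that is 35.7% and 3.57%, against 14.7% and 20.9% of all genes tested. With reads scaled by TMM NIL had 10 higher and 3 lower, and with 0.1 FPKM added 12 higher and 5 lower. In Ilpum 9 were higher and 7 lower, that is 32.1% and 25%, against 20.4% and 28.6% of all genes. Of those higher in Ilpum, Os02g0771700 and Os07g0539100 passed the filter through Ilpum GRH alone. Of those higher in NIL, Os08g0525800 passed through NIL GRH alone (5.42 FPKM, against at most 1.66 FPKM in the other libraries). The median log2FC was 0.49 in NIL and 0.27 in Ilpum. Of the 17 genes with at least 100 reads, 6 were higher and 1 lower in NIL, and 4 were higher and 2 lower in Ilpum. At that depth 10.4% of all genes were higher and 14.3% lower in NIL, and 14.1% were higher and 22.8% lower in Ilpum. Higher in both lines were 4 breakdown genes (6.2% of all genes tested) and lower in both was none (9.39% of all genes). Higher in NIL and within 2-fold in Ilpum were 3 genes (5.9% of all genes), and 5 were higher in Ilpum and within 2-fold in NIL (10.7% of all genes). Lower in NIL and within 2-fold in Ilpum was 1 gene (8.08% of all genes), and 4 were lower in Ilpum and within 2-fold in NIL (16.6% of all genes). Of the others, 3 passed 2-fold upward in NIL and downward in Ilpum (2.57% of all genes), none did the opposite (3.46% of all genes), and 8 stayed within 2-fold in both lines (37.1% of all genes).

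Among the breakdown genes with at least 100 reads, a pair of neighbours on chromosome 1 and 1 gene on chromosome 7 had the largest ratios of GRH to control in both lines. Os01g0940800 (chromosome 1, 41349731 to 41351118), similar to a beta-1,3-glucanase precursor, had 135 FPKM in NIL GRH against 15 in NIL control, and 429 FPKM in Ilpum GRH against 30.2 in Ilpum control. The level with GRH was 9.04 times that of the control in NIL and 14.2 times in Ilpum, from 206 and 98 reads in NIL and 512 and 84 in Ilpum. The log2 ratio of reads was 3.18 in NIL (2.82 to 3.54) and 3.85 in Ilpum (3.52 to 4.20). In Ilpum GRH this gene passed every other member in FPKM.

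Os01g0940700 (41346647 to 41348373), which lies next to Os01g0940800 on the same strand, is similar to the glucanase isoenzyme GII, a name taken from barley. It had 83.6 FPKM in NIL GRH against 10.2 in NIL control, and 123 FPKM in Ilpum GRH against 7.69 in Ilpum control. The level was 8.17 times that of the control in NIL and 16 times in Ilpum, and the log2 ratio of reads was 2.98 (2.55 to 3.42) and 4.04 (3.39 to 4.76). Neighbouring copies can share reads, so the split between these genes is uncertain. The next copies along the chromosome, Os01g0941200 and Os01g0941500, had no reads in any library.

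Os07g0539900 (chromosome 7, 21280322 to 21282626), similar to a beta-1,3-glucanase-like protein, had the largest response of all members in Ilpum. It had 61.9 FPKM in NIL GRH against 6.69 in NIL control, and 133 FPKM in Ilpum GRH against 3.07 in Ilpum control, that is 9.26 times and 43.2 times the control. The log2 ratio of reads was 3.20 in NIL (2.79 to 3.62) and 5.47 in Ilpum (4.70 to 6.36). Between lines, the log2 ratio of reads in NIL minus that in Ilpum was -2.26 (-3.25 to -1.37). For Os01g0940800 the same difference was -0.67 (-1.18 to -0.17), and for Os01g0940700 it was -1.06 (-1.91 to -0.26). All 3 of these genes thus had a larger ratio of GRH to control in Ilpum than in NIL. The 4 libraries give no spread between plants with which to test this.

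**Figure D2:**
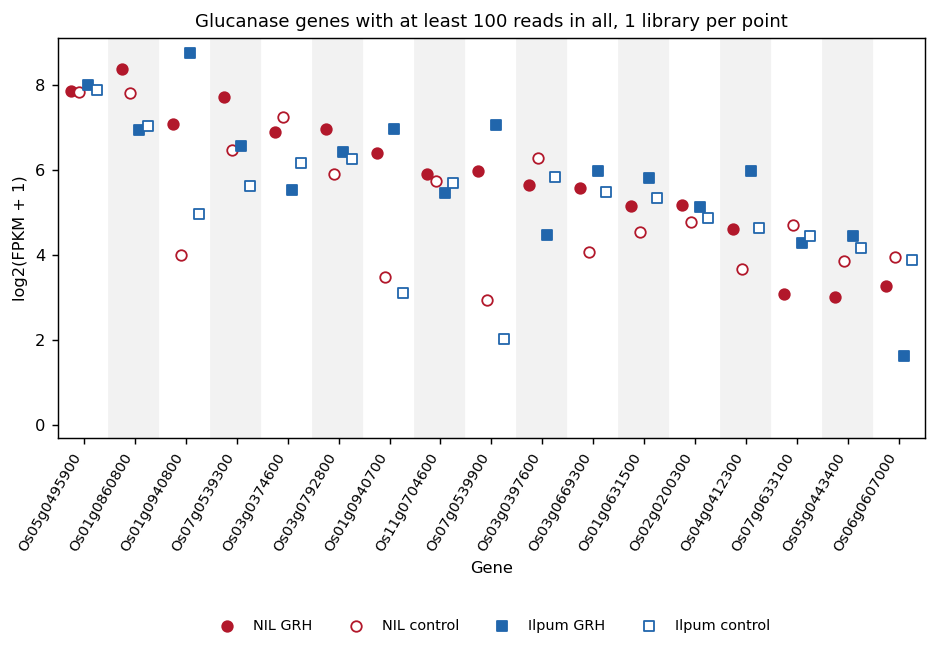
Level of the 17 beta-1,3-glucanase genes with at least 100 reads over the 4 libraries, as log2 of FPKM with 1 added, ordered by mean level, with 1 library per point. Os01g0940800, Os01g0940700 and Os07g0539900 are well above their controls with GRH in both lines, while Os05g0495900 lies between 226 and 253 FPKM in all libraries.

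Os03g0227400 (chromosome 3, 6706278 to 6708143), similar to glucan endo-1,3-beta-glucosidase 7, was the remaining gene higher in both lines. It had 5.43 FPKM in NIL GRH against 1.17 in NIL control (12 and 11 reads). In Ilpum it had 12.5 FPKM with GRH (22 reads) against a listed 0 in Ilpum control. With 3 reads in Ilpum control it would be 17.4-fold higher in Ilpum, while the exact interval of the log2 ratio of reads began at 3.70. Os04g0412300 (chromosome 4, 20372912 to 20377754), a family 17 protein, had 23.5 FPKM in NIL GRH against 11.7 in NIL control, and 61.8 FPKM in Ilpum GRH against 23.7 in Ilpum control. Its FPKM ratio was 2.02 in NIL, which misses the threshold once 1 FPKM is added (log2FC 0.95), and 2.61 in Ilpum. The other genes higher in Ilpum and within 2-fold in NIL were Os01g0944700, Os02g0139300, Os02g0771700 and Os07g0539100, each with at most 34 reads in any library and named here after their values were seen. Their place within 2-fold in NIL depends on the pseudocount. With 0.1 FPKM added in place of 1, the log2FC in NIL was 1.19 for Os01g0944700, -1.02 for Os02g0139300, -1.73 for Os02g0771700 and -1.50 for Os07g0539100, all past 2-fold. Os01g0944700 also passed 2-fold in NIL in TPM (1.03), after quantile normalization (1.53) and with reads scaled by TMM (1.11) or DESeq2 size factors (1.19), while the counting interval of its reads in NIL ran from -0.35 to 2.64. Os02g0771700 and Os07g0539100 had no read in Ilpum control, against 22 and 16 reads in Ilpum GRH. With 3 reads in Ilpum control they would be 17.4-fold and 12.6-fold higher. The exact intervals of their log2 ratios of reads in Ilpum began at 3.70 and 3.19. Neither had a read in NIL GRH, where NIL control had 3 and 2. Both genes passed the filter only through Ilpum GRH, so their count as higher in Ilpum followed from the filter.

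The genes at least 2-fold higher in NIL and within 2-fold in Ilpum were among the better expressed ones. Os07g0539300 (chromosome 7, 21238284 to 21241263), a family 17 protein, had 210 FPKM in NIL GRH against 87.3 in NIL control, and 93.2 FPKM in Ilpum GRH against 48.3 in Ilpum control. Its log2 ratio of reads was 1.28 in NIL (1.13 to 1.43) and 0.99 in Ilpum (0.72 to 1.26), so it lay just within 2-fold in Ilpum, and the interval of the difference between lines ran from -0.02 to 0.60. Os03g0669300 (chromosome 3, 26407715 to 26410517) had 46.8 FPKM in NIL GRH against 15.8 in NIL control, and 62.2 FPKM in Ilpum GRH against 43.7 in Ilpum control. Its larger ratio in NIL (1.69, interval 1.32 to 2.05, against 0.55 in Ilpum, 0.21 to 0.89) came with a control level in NIL at 0.361 times that of Ilpum. Os03g0792800 (chromosome 3, 32971331 to 32973196) had 123 FPKM in NIL GRH against 58.9 in NIL control, and 84.4 FPKM in Ilpum GRH against 75.1 in Ilpum control. Both of these chromosome 3 genes encode beta-1,3-glucanase-like proteins.

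Genes lower with GRH were fewer than those higher, with 1 against 10 in NIL and 7 against 9 in Ilpum. Most were weakly expressed, as were several of the genes higher with GRH. Os06g0607000 (chromosome 6, 24127167 to 24130368), similar to a beta-1,3-glucanase, had 8.74 FPKM in NIL GRH against 14.4 in NIL control, and 2.08 FPKM in Ilpum GRH against 13.9 in Ilpum control (4 and 62 reads). Its log2 ratio of reads was -0.67 in NIL (-1.39 to -0.02) and -2.71 in Ilpum (-4.63 to -1.28). Os03g0397600 (chromosome 3, 16070955 to 16072483), a family 17 gene of a single exon, had 49.2 FPKM in NIL GRH against 77.1 in NIL control, and 21.3 FPKM in Ilpum GRH against 56.3 in Ilpum control. The infested library was below its control in both lines, with ratios of 0.639 and 0.378 of the FPKM. Os07g0633100 (chromosome 7, 26259266 to 26263678), similar to glucan endo-1,3-beta-glucosidase 4, was the gene lower in NIL and within 2-fold in Ilpum. It had 7.46 FPKM in NIL GRH against 25.2 in NIL control (12 and 163 reads), and 18.3 FPKM in Ilpum GRH against 21 in Ilpum control. Os05g0443400 (chromosome 5, 21699330 to 21703558), similar to glucan endo-1,3-beta-glucosidase 7, stayed within 2-fold and had 7.04 FPKM in NIL GRH against 13.5 in NIL control, while Ilpum had 20.8 FPKM with GRH against 17 without. The interval of the difference between lines ran from -2.17 to -0.49 for Os05g0443400 and from -2.82 to -0.39 for Os07g0633100. Of the genes lower in Ilpum, Os03g0722500 and Os09g0502200 were listed at 0 in Ilpum GRH against 12 and 14 reads in Ilpum control. With 3 reads in Ilpum GRH they would be 1.69-fold and 1.97-fold lower. The exact intervals of their log2 ratios of reads reached -0.23 and -0.49.

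**Figure D3:**
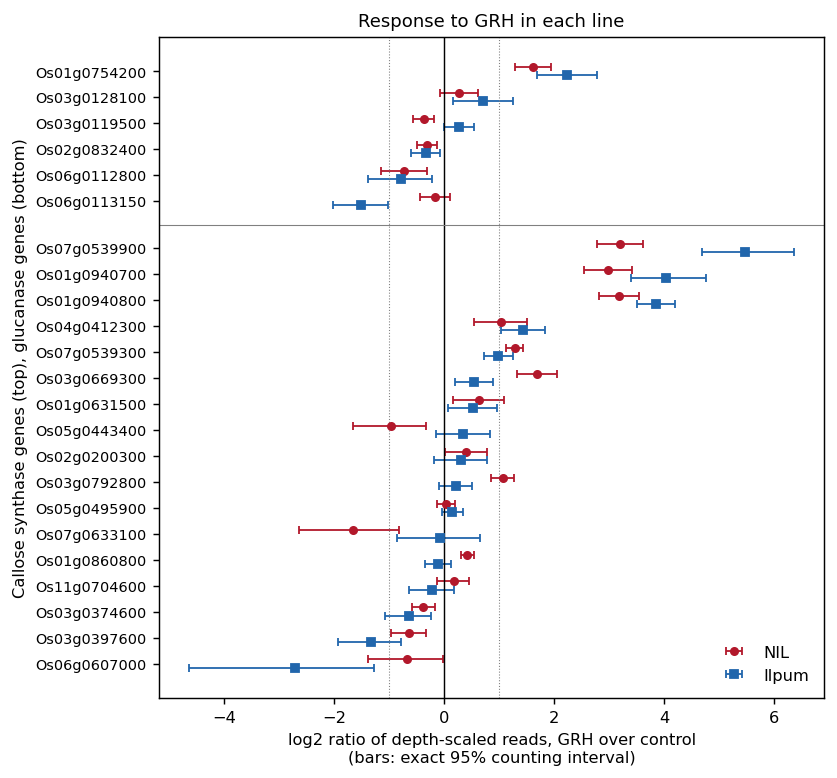
Log2 ratio of depth-scaled reads, GRH over control, in NIL and Ilpum for the 6 callose synthase and 17 beta-1,3-glucanase genes with at least 100 reads in all, with exact 95% counting intervals as bars and 2-fold marked by dotted lines. Os07g0539900, Os01g0940700 and Os01g0940800 lie far to the right in both lines (2.98 to 5.47), Os01g0754200 leads the synthesis genes, and most other genes lie within 2-fold.

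The 2 glucanase genes with the highest mean level stayed within 2-fold in both lines. Os05g0495900 (chromosome 5, 24371216 to 24374660), similar to a beta-1,3-glucanase precursor, had 231 FPKM in NIL GRH against 226 in NIL control, and 253 FPKM in Ilpum GRH against 233 in Ilpum control. Its counting intervals were narrow, NIL lying between -0.13 and 0.20 and Ilpum between -0.04 and 0.34. Os01g0860800 (chromosome 1, 37269811 to 37274701), a family 17 protein, had 329 FPKM in NIL GRH against 221 in NIL control, and 121 FPKM in Ilpum GRH against 129 in Ilpum control. It was the member with the highest level in NIL GRH, where it was 2.73 times that in Ilpum GRH. Os11g0704600 (chromosome 11, 28838859 to 28842804) had between 42.9 FPKM (Ilpum GRH) and 58.7 FPKM (NIL GRH), and Os02g0200300 (chromosome 2, 5611553 to 5614432) between 26.2 FPKM (NIL control) and 35.1 FPKM (NIL GRH). Os01g0631500 (chromosome 1, 25271701 to 25273506) was 1.54 times its control in NIL and 1.39 times in Ilpum.

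The synthesis genes summed to 1.3 times the level of Ilpum control in NIL control, and 5 of the 7 that passed the filter were above it, with a median log2 ratio of 0.49. Among the 28 breakdown genes, 2 were at least 2-fold higher in NIL control and 2 at least 2-fold lower, that is 7.14% each, against 14.1% and 14% of all genes tested. These counts depend on the pseudocount, since with 0.1 FPKM added they were 5 and 5, against 17.7% and 17.1% of all genes. Scaled by TMM they were 5 higher and 2 lower, and by DESeq2 size factors 5 higher and 3 lower. Among the 7 synthesis genes none was higher and 1 was lower, namely Os01g0533500. This gene passed the filter only through Ilpum control, so its count as lower in NIL control followed from the filter. With GRH, 10 breakdown genes were higher in NIL and 11 lower, that is 35.7% and 39.3%, against 25% and 23.7% of all genes, and 1 synthesis gene (Os06g0113150) was higher. These infested libraries were the shallowest, and 11 of the 28 breakdown genes had fewer than 100 reads in all. Among the genes counted with GRH, Os08g0525800 passed the filter only through NIL GRH, and Os02g0771700 and Os07g0539100 only through Ilpum GRH. Os03g0374600 (chromosome 3, 14759852 to 14767790), a family 17 protein, was the member at least 2-fold higher in NIL both with and without GRH. It had 117 FPKM in NIL GRH against 44.9 in Ilpum GRH, and 151 FPKM in NIL control against 70.5 in Ilpum control. The log2 ratio of reads between lines had a counting interval of 0.98 to 1.81 with GRH and 0.92 to 1.32 without. With 1 FPKM added, no member was at least 2-fold lower in NIL in both comparisons. Without it, 2-fold was passed in both by Os01g0940800 and Os04g0412300. The FPKM of Os01g0940800 in NIL was 0.495 times that in Ilpum without GRH and 0.315 times with GRH. For Os04g0412300 these ratios were 0.492 and 0.381.

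By position, 13 of the 48 breakdown genes lay in 3 arrays, in which neighbours are at most 100 kb apart. The array at 41346647 to 41376297 on chromosome 1 holds 4 genes and summed to 219 FPKM in NIL GRH against 25.2 in NIL control, and to 552 FPKM in Ilpum GRH against 37.9 in Ilpum control. A second array of 6 genes on the same chromosome (41525702 to 41631696) summed to no more than 27.5 FPKM in any library. Its member Os01g0944700, similar to a beta-1,3-glucanase precursor, had 4.39 FPKM in NIL GRH against 1.86 in NIL control, and 27.5 FPKM in Ilpum GRH against 2.8 in Ilpum control (34 and 8 reads). Its neighbour Os01g0944800 went the other way in Ilpum, with a listed 0 in Ilpum GRH against 9 reads in Ilpum control, while NIL had 20 reads with GRH against 13 without. The counting interval of the log2 ratio in Ilpum reached 0.26, so that no change lay within it. Os07g0510200, a family 17 gene, and Os08g0525800, similar to glucan endo-1,3-beta-glucosidase A6, also passed 2-fold upward in NIL and downward in Ilpum on the FPKM scale, on at most 14 reads a library. Their intervals in Ilpum also held no change, running from -4.74 to 0.56 for Os07g0510200 and reaching 1.37 for Os08g0525800. Os08g0525800 passed the filter only through NIL GRH. The array on chromosome 7 (21223272 to 21282626) holds Os07g0539900, Os07g0539300 and Os07g0539100 and summed to 272 FPKM in NIL GRH against 94.1 in NIL control, and to 234 FPKM in Ilpum GRH against 51.4 in Ilpum control. Genes of one array thus differed in their ratios, and some had no reads at all. Breakdown genes have 1 to 5 exons in their longest transcript, against 2 to 51 in the synthesis genes.

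**Figure D4:**
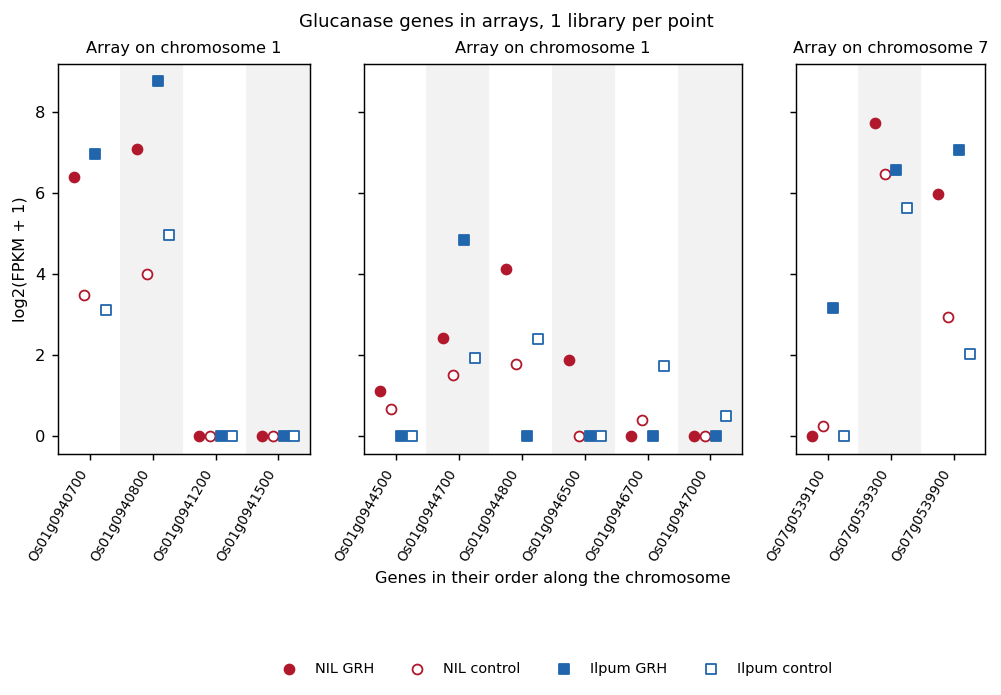
Level of the 13 beta-1,3-glucanase genes in arrays, as log2 of FPKM with 1 added, in the order of the genes along chromosomes 1 and 7, with 1 library per point. The first 2 genes of the left array and the last gene of the right one are high with GRH in both lines, while Os01g0941200 and Os01g0941500 are at 0.

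Other genes around callose were counted by word searches of the descriptions. For the supply of UDP-glucose (sucrose synthases and UDP-glucose pyrophosphorylases), 7 of 9 genes passed the filter, of which 2 were higher with GRH in NIL and 3 in Ilpum, and none was lower. For this and the following lists, the shares of all genes tested were 14.7% higher and 20.9% lower in NIL, and 20.4% higher and 28.6% lower in Ilpum. Among them Os03g0401300, sucrose synthase 2, had 62.4 FPKM in NIL GRH against 7.65 in NIL control, and 90.8 FPKM in Ilpum GRH against 5.53 in Ilpum control. The search for callose binding and plasmodesmata found 11 genes, all described only as X8 domain containing proteins, which does not state either role. Of these, 4 passed the filter, with no more than 10.2 FPKM in any library. None was higher and 1 was lower in NIL, and 2 were higher and 1 lower in Ilpum. The 2 higher in Ilpum passed the filter only through Ilpum GRH, so their count as higher followed from the filter. Os05g0581900 had 10.2 FPKM in Ilpum GRH and 0 in the other libraries. Os03g0833600 had 6.08 FPKM in Ilpum GRH and at most 1.67 FPKM in the other libraries. The word chitinase, a name for enzymes that cut the other main polymer of fungal walls, had 26 of 38 genes tested. Of these, 17 were higher with GRH and 1 lower in NIL, against 19 higher and 2 lower in Ilpum. Os05g0247100 is also described as a xylanase inhibitor, and Os09g0494200 as a chitinase-like protein of cellulose biosynthesis. Os05g0138200, higher in Ilpum, passed the filter only through Ilpum GRH (4.08 FPKM, against at most 0.655 FPKM in the other libraries). Cellulose synthases, which make another glucan from UDP-glucose, had 8 of 14 genes tested, with 3 higher and 1 lower in NIL and 6 higher and none lower in Ilpum. Of those higher in Ilpum, Os09g0422500 passed the filter only through Ilpum GRH (12.4 FPKM, against at most 0.449 FPKM in the other libraries).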

How the data were processed

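Leaf RNA-seq of 4 libraries, 1 per condition, was used. The authors trimmed reads, aligned them with HISAT and ran StringTie 1.3.4d on the RAP-DB representative transcripts of the IRGSP-1.0 genome, as the deposited headers and the submitters' processing notes give it. The deposited estimated counts are whole numbers and were used as reads without rounding. The authors' FPKM adds up the transcripts of each gene (44643 transcripts in all), and the authors' TPM gives every library the same total. The deposited coverage (signal) is the mean depth per base and served only to identify the tables.

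Members were found in the decoded transcript descriptions, where commas are coded. Without decoding the search found 6 genes. The members and the lists of other genes were chosen with earlier results of these data known. Log2 ratios were computed with a pseudocount of 1 FPKM for genes averaging 1 FPKM or more, and genes past 2-fold were counted. Ratios of reads have exact Clopper-Pearson 95% intervals, and differences between lines have exact intervals of the conditional odds ratio, both scaled to library totals. With 1 library per group no test was run. The depth limits low genes, since 3 reads are 2.56 CPM in NIL GRH, 0.596 in NIL control, 3.35 in Ilpum GRH and 1.42 in Ilpum control.

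Genes were named by a rule. It took every synthesis gene, and the breakdown genes among the 10 with the highest mean FPKM or, with at least 100 reads, among the 8 largest or 4 smallest responses or the 4 largest line differences. It also took members at 0 in a library where another had at least 30 reads. Others were named after their values were seen. Alternatives were a pseudocount of 0.1, no filter, a mean of at least 5 FPKM, TPM, quantile normalization, TMM (edgeR 4.0.16), DESeq2 1.42.0 size factors, 4-fold, and 2-fold with the counting interval. Scripts ran in Python 3.11.15 with SciPy 1.17.1 and R 4.3.3, and were tested on simulated data. No sequence is printed, and gene symbols were not used.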

Additional observations from a re-analysis of the deposited data

Results flagged for a closer look

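For 3 breakdown genes the FPKM of NIL and Ilpum differed from their controls by 2-fold or more in opposite directions, but in each the counting interval in Ilpum includes no change. Os01g0944800, similar to a beta-1,3-glucanase, had a log2FC of 2.36 in NIL and -2.40 in Ilpum, a difference of 4.75. It had 20 reads in NIL GRH against 13 in NIL control, and 0 in Ilpum GRH against 9 in Ilpum control. The log2 ratio of its reads was 2.73 in NIL (1.65 to 3.86), and its interval in Ilpum reached 0.26. Os07g0510200, a family 17 protein, had a log2FC of 1.83 in NIL and -1.20 in Ilpum, a difference of 3.03, from 11 reads in NIL GRH against 6 in NIL control and 2 in Ilpum GRH against 14 in Ilpum control. Its log2 ratio of reads was 2.98 in NIL (1.42 to 4.70) and -1.56 in Ilpum (-4.74 to 0.56). Os08g0525800, similar to glucan endo-1,3-beta-glucosidase A6, had a log2FC of 1.27 in NIL and -1.14 in Ilpum, a difference of 2.41, from 10 reads in NIL GRH against 14 in NIL control and 0 in Ilpum GRH against 5 in Ilpum control. Its log2 ratio of reads was 1.62 in NIL (0.29 to 2.90), and the interval in Ilpum reached 1.37. Os08g0525800 passed the filter only through NIL GRH (5.42 FPKM), so its count as higher in NIL, and its place here, followed from the filter. Where Ilpum GRH is listed at 0, the log2FC depends on the 1 FPKM added and is no bound. None of these differences was tested, and each rests on 1 library per condition.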

How the results depend on the processing

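For genes past the threshold in Ilpum, the count of synthesis genes lower with GRH was 1 with a mean of at least 5 FPKM, 1 at 4-fold and 1 with at least 100 reads, against 2 as reported, and the count higher was 0 at 4-fold, against 1. Breakdown genes higher in Ilpum numbered 5 with at least 5 FPKM and 4 with at least 100 reads, against 9, and those lower numbered 3 with at least 5 FPKM, 4 at 4-fold, 4 with the counting interval and 2 with at least 100 reads, against 7. In NIL, synthesis genes higher numbered 1 under TMM and 1 under DESeq2 size factors (Os01g0754200), against 0, and those lower 2 without a filter and 0 with at least 5 FPKM, under quantile normalization, at 4-fold, with the counting interval and with at least 100 reads, against 1. Breakdown genes higher in NIL numbered 4 at 4-fold and 6 with at least 100 reads, against 10, and those lower 5 with a pseudocount of 0.1, 2 in TPM, 3 under TMM, 2 under DESeq2 size factors and 0 at 4-fold, against 1. The split in NIL was thus 10 higher and 1 lower as reported, 12 higher and 5 lower with a pseudocount of 0.1, and 10 higher and 3 lower under TMM. Between lines without GRH, breakdown genes higher in NIL numbered 5 with a pseudocount of 0.1, under TMM and under DESeq2 size factors, 1 with at least 5 FPKM or 100 reads and 0 at 4-fold, against 2, and those lower 5 with a pseudocount of 0.1, 1 with at least 5 FPKM or 100 reads and 0 at 4-fold, against 2. Synthesis genes higher numbered 1 without a filter, under TMM and under DESeq2 size factors, against 0, and those lower 0 with at least 5 FPKM, at 4-fold or with 100 reads, against 1. With GRH, breakdown genes higher in NIL numbered 6 with at least 5 FPKM, 2 at 4-fold and 5 with at least 100 reads, against 10, those lower 6, 4 and 5 under the same settings, against 11, and the synthesis gene that was higher was lost at 4-fold (0 against 1). Between lines with GRH, TMM put the median log2 ratio of all genes at -0.10, against 0 as reported. The minimum of 100 reads was chosen after seeing the data. The cause of the other shifts was not tested, while a stricter filter or fold leaves fewer genes by construction. Of 940 values for single genes under the alternatives, 884 kept their sign and side of 2-fold, 34 newly passed it and 9 no longer did. The other 13 changed sign within 2-fold, all from a value no further from 0 than -0.56, and included Os05g0495900 in NIL (0.03 as reported, -0.21 after quantile normalization). No value past 2-fold changed sign. No paired analysis was possible because each group has 1 library, and for the same reason no library could be left out. The libraries with GRH were the shallowest, and 11 breakdown genes passed the filter on fewer than 100 reads in all, so that single genes at a few reads are the least certain values.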

Other observations

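A wider search of the descriptions, chosen after seeing the data, found 10 further genes worded like breakdown enzymes. The best expressed, Os01g0944900 (chromosome 1, 41539758 to 41540817), lies within the second array on chromosome 1. It had 88.8 FPKM in NIL GRH against 66.7 in NIL control, and 18.5 FPKM in Ilpum GRH against 38.6 in Ilpum control, a log2FC of 0.41 in NIL and -1.02 in Ilpum. Os08g0224500 had no read in NIL GRH against 137 in NIL control, and 8 reads in Ilpum GRH against 62 in Ilpum control, so that it was lower with GRH in both lines. Os09g0272300 was also lower in both, with a log2FC of -1.38 in NIL and -2.30 in Ilpum. Os01g0277700 had 0.80 in NIL and -1.54 in Ilpum, and Os07g0168600 had 0.67 in NIL and 1.27 in Ilpum. The counts of breakdown genes higher and lower, and that none was lower in both lines, thus depend on the wording of the search. Os03g0656800 lay between 28.9 FPKM (Ilpum control) and 31.6 FPKM (NIL GRH) in all 4 libraries.

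The deposited values of some genes were split differently over their transcripts in the Ilpum GRH library. For Os06g0112800, transcript Os06t0112800-02 had 2.01 FPKM in NIL GRH against 0.297 in NIL control, and 24.2 FPKM in Ilpum GRH against 0.985 in Ilpum control. Transcript Os06t0112800-01 of the same gene had 29.98 FPKM in NIL GRH against 53.9 in NIL control, and 2.19 FPKM in Ilpum GRH against 41 in Ilpum control. These rest on 29 reads and 3 reads in Ilpum GRH.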
